A study of Sus scrofa with 48 samples.

Results

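PMCH and HCRT, the genes for melanin-concentrating hormone and for the orexin precursor, were followed in piglet hypothalamus together with the orexin receptor genes HCRTR1 and HCRTR2 and with QRFPR, the receptor gene for the neighbouring RFamide peptide. These 5 genes were taken by name out of the 22924 gene identifiers of the deposited count table, 14894 of which have a symbol. Poly-A RNA had been sequenced from hypothalamus and ileum of weaned piglets, which the labels divide into low and high growth by average daily gain up to the sampling day. The 24 hypothalamus libraries fell into 4 groups of 6: day 39 low growth, day 39 high growth, day 7 low growth and day 7 high growth. The other 24 libraries, in groups of the same kind, were ileum. The labels used here give no breed, sex, age, litter, diet or sequencing batch, and nothing that ties a day 7 animal to a day 39 one. Nothing in them says how the hypothalamus was cut out, so p-values measure the spread between these samples.

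Melanin-concentrating hormone and orexin are made by separate, intermingled neurons of the lateral hypothalamus. In rodents, melanin-concentrating hormone promotes feeding, energy storage and sleep through MCHR1, while orexin sustains wakefulness and food seeking through HCRTR1 and HCRTR2. The peptide neurons form a small field next to the mammillary and tuberomammillary nuclei, and their axons reach most of the brain, so the receptors are made by many other cells. HCRTR1 prefers orexin A, HCRTR2 binds both orexins, and QRFPR binds the peptide encoded by QRFP, which also acts on feeding in rodents. MCHR2, a further receptor for melanin-concentrating hormone, is absent from rodents.

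On the Sscrofa11.1 build, RefSeq places PMCH on chromosome 5 from 82018915 to 82020267 and HCRT on chromosome 12 from 20588597 to 20589991. HCRTR1 lies on chromosome 6 from 88139623 to 88149531, HCRTR2 on chromosome 7 from 25830544 to 25929640 and QRFPR on chromosome 8 from 102745001 to 102791366. The PMCH interval overlaps PARPBP, and the HCRT interval overlaps GHDC. The 3 receptor genes overlap no annotated gene. Estimated counts of PMCH and of HCRT were not whole numbers (further than 0.01 from one) in any of the 24 hypothalamus libraries, whereas those of HCRTR1 and QRFPR were whole in every one. Whether the counting used strand is not given in the sources used here. Any reads that fit both PMCH and PARPBP, or both HCRT and GHDC, therefore cannot be told apart. PARPBP ran from 0.982 to 46.4 CPM (counts-per-million, scaled to the size of the library) and GHDC from 14.7 to 25.5 CPM in hypothalamus. Over the hypothalamus libraries r of log2 CPM was 0.89 between PMCH and PARPBP and -0.24 between HCRT and GHDC.

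The hypothalamus libraries held between 14168747 and 21122814 estimated counts, with a median of 16146542. Of 15 transcription factor genes listed as marks of hypothalamus, 14 were found, and their summed level ran from 24.5 to 373 CPM at day 39 in low growth, 40.4 to 166 CPM at day 39 in high growth, 26.7 to 213 CPM at day 7 in low growth and 42.1 to 171 CPM at day 7 in high growth. Of these marks, RAX was at 0 in 14 of 24 libraries, and SIX3, LHX6, ISL1, LHX9 and FOXB1 were above 0 in all 24. Low growth replicate 3 of day 39 stood apart: it had the highest cortex and hippocampus sum (1448 CPM of 5 genes, against at most 51.7 CPM in any other library), a raphe sum of 714 CPM and a cerebellum sum of 1316 CPM, and only 0.718 CPM of the GABA enzyme gene GAD1. Low growth replicate 1 of day 39 carried 4682 CPM over 5 pituitary genes, against at most 9.68 CPM in any other library. In bulk tissue, fewer cells of a type and less RNA per cell cannot be told apart, and the part that dissection had in the values below was not tested.

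PMCH was among the most variable genes of the hypothalamus, and at day 39 it was low in all but 1 of the low growth libraries. At day 39 in low growth it measured 3.54, 685, 0.239, 2.04, 5.63 and 1.73 CPM in replicates 1 to 6, and at day 39 in high growth 33.9, 418, 194, 11.9, 16.2 and 256 CPM. Thus 5 of the 6 low growth libraries lay below every high growth library, and replicate 2 lay above all of them. With replicate 2 left out, 29 of 15865 tested genes (0.183%) were all lower in low growth, and 42 (0.265%) all higher. That library was picked for its own PMCH level, so this order is a description. At day 7 the lowest, median and highest values were 5.44, 250.0 and 299 CPM in low growth, against 28.5, 79.2 and 184 CPM in high growth. There the order was the other way: 5 of the 6 low growth libraries, between 201 and 299 CPM, were above the highest high growth library, and replicate 4 at 5.44 CPM was below all of them. Replicate 4 was singled out for its own PMCH level, so this order too is a description. How many of all genes had such an order without replicate 4 was not counted. With all libraries kept, 34 of 15865 tested genes (0.214%) were all higher in low growth at day 7, and PMCH was not among them. By median the groups ran from day 7 low growth through day 39 high growth and day 7 high growth to day 39 low growth at 2.79 CPM, and the ranges of all neighbours in that order overlapped.

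HCRT followed the same order of medians over a narrower range. At day 39 it measured 11.7, 309, 3.65, 2.46, 4.45 and 10.2 CPM in low growth replicates 1 to 6, and 78.6, 268, 47.2, 12.3, 36.7 and 259 CPM in high growth. Again 5 low growth libraries lay below the lowest high growth library, by a small margin (11.7 against 12.3 CPM), and replicate 2 was above the highest. PMCH and HCRT were thus both among the 29 of 15865 genes (0.183%) that were all lower without replicate 2. At day 7 the lowest, median and highest values were 6.23, 81.6 and 377 CPM in low growth libraries and 5.45, 61.1 and 189 CPM in high growth. These groups overlapped over nearly their whole range.

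**Figure D1:**
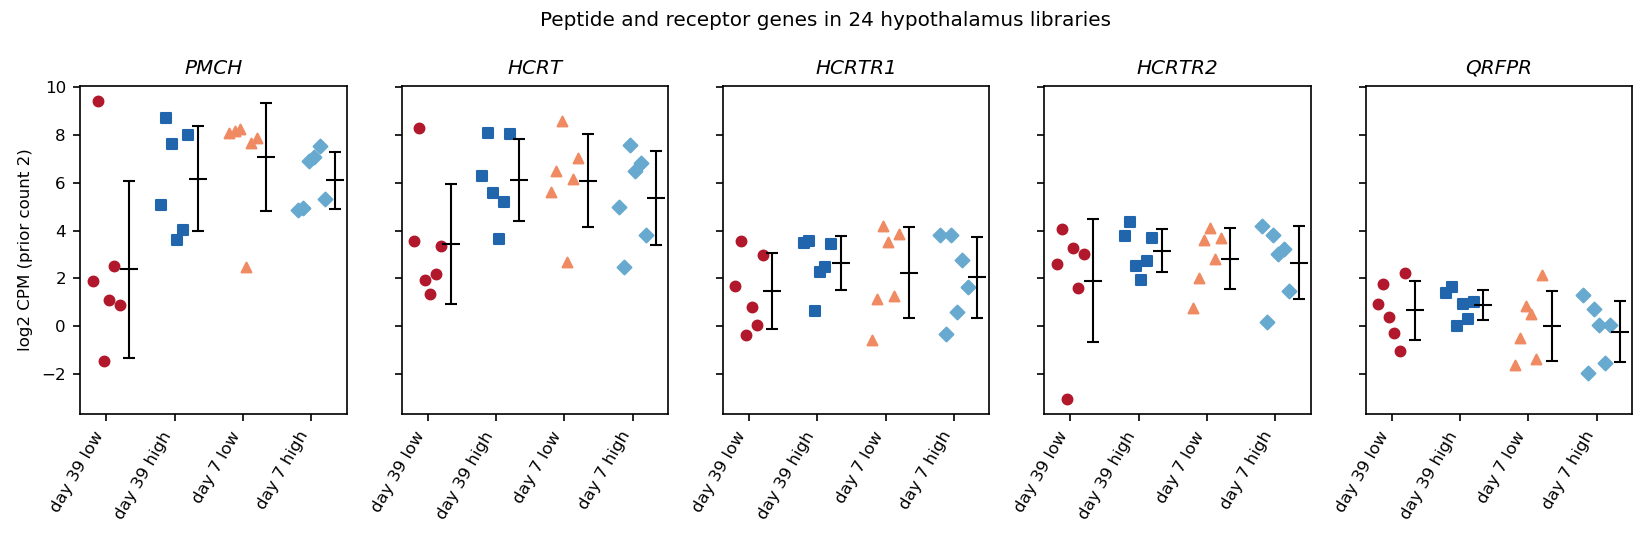
Level of PMCH, HCRT, HCRTR1, HCRTR2 and QRFPR in each of the 24 hypothalamus libraries (log2 CPM with a prior count of 2, by day and growth group). Each point is a library; the horizontal bar and whiskers are the mean and SD of 6 libraries. For both peptide genes, 1 day 39 low growth library lies far above the other 5 of its group.

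Low growth was set against high growth in each day, with edgeR's quasi-likelihood test over 15865 genes and Benjamini-Hochberg adjustment. None of the 5 genes passed the threshold of 0.05 at day 39 or at day 7, where 0% of all tested genes passed. At day 39, without adjustment, 864 of the tested genes (5.45%) had a p under 0.05, and at day 7, 1217 (7.67%); the 5 genes were not among them. At day 39 the log2 fold change of PMCH, low over high growth, was -0.41 ± 1.30 (SE, adjusted p = 0.999) and that of HCRT -1.04 ± 1.12 (adjusted p = 0.999). At day 7 they were 1.27 ± 1.31 (adjusted p = 0.867) for PMCH and 0.71 ± 1.11 (adjusted p = 0.925) for HCRT. The day 39 effect less the day 7 effect was -1.68 ± 1.84 for PMCH (adjusted p = 0.878) and -1.75 ± 1.57 for HCRT (adjusted p = 0.828). The growth effects of the 2 days were therefore not shown to differ; 0 of 15865 genes passed for that difference, and 1233 (7.77%) had a p under 0.05 without adjustment.

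The day 39 values rest on low growth replicate 2. A fold change of arithmetic levels, as edgeR fits it, is carried by that library: PMCH averaged 116.3 ± 279 CPM in low growth libraries and 155 ± 164 CPM in high growth (SD, n = 6 each), although the medians were 2.79 and 114.02 CPM. The mean of log2 CPM, which weighs the libraries more evenly, was 2.39 in low growth and 6.17 in high growth for PMCH, a difference of -3.78 (exact two-sided permutation test over 924 splits, p = 0.0584, n = 6 each). For HCRT the means were 3.45 in low growth and 6.13 in high growth, a difference of -2.68 (exact permutation p = 0.0628). The smallest p this design can give is 0.00216, and neither gene reached 0.05. At day 7 the same differences were 0.97 for PMCH (exact permutation p = 0.4) and 0.72 for HCRT (exact permutation p = 0.528).

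With replicate 2 left out, the day 39 log2 fold change was -5.88 ± 1.12 for PMCH (edgeR, adjusted p = 0.137) and -4.16 ± 1.03 for HCRT (adjusted p = 0.207). In that fit 0 of 16034 genes passed, and 286 (1.78%) were lower with an unadjusted p under 0.05. Replicate 2 is the library that stands apart in PMCH and HCRT themselves, so these values show how far 1 library sets the fold change and are no support for a growth difference. With replicate 3 left out instead, the library with cortical and cerebellar RNA, the fold changes were -0.15 ± 1.27 for PMCH and -0.79 ± 1.14 for HCRT. With both left out they were -5.58 for PMCH (adjusted p = 0.366) and -4.01 for HCRT (adjusted p = 0.774). Replicate 2 also had the highest mammillary and tuberomammillary sum of its group, 399.6 CPM over 5 genes, and the other 5 libraries had 1.38 to 99.6 CPM; the part of this in the result was not tested.

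**Figure D2:**
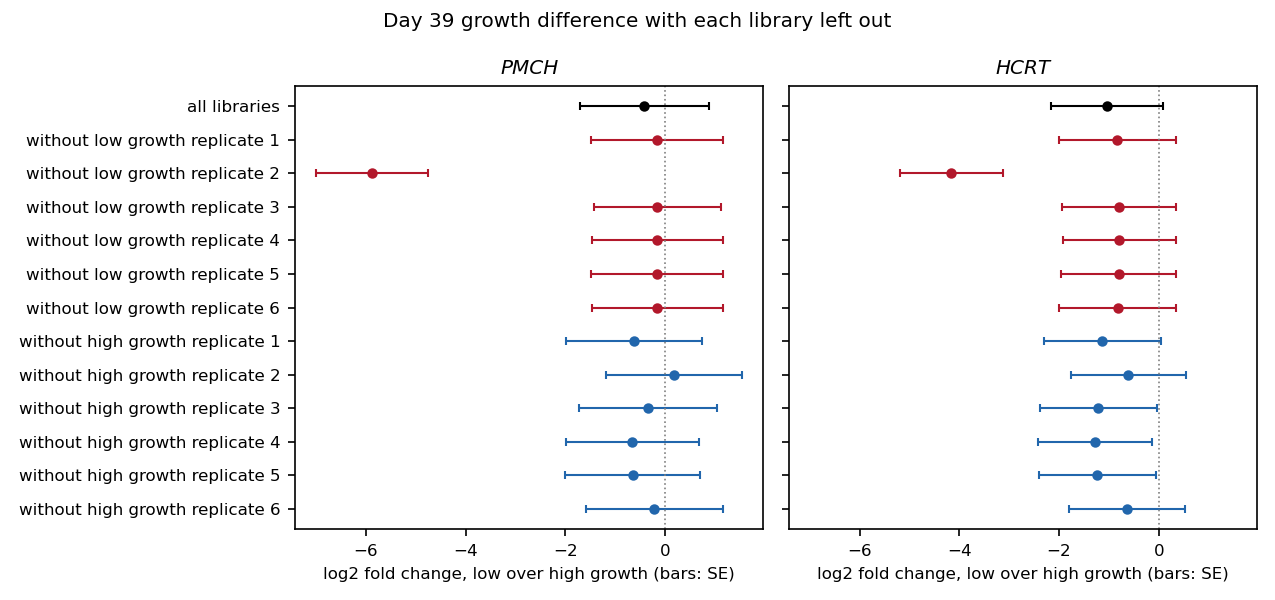
Day 39 log2 fold change, low over high growth, of PMCH and HCRT in edgeR fits with all libraries and with each day 39 library left out (points; bars are the SE). Without low growth replicate 2 the values are -5.88 for PMCH and -4.16 for HCRT; in the other fits PMCH lies between -0.66 and 0.19 and HCRT between -1.28 and -0.61.

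Day 39 was then set against day 7. Averaged over growth, the log2 fold change was -0.05 ± 0.92 for PMCH (adjusted p = 0.990) and -0.21 ± 0.78 for HCRT (adjusted p = 0.938), where 5 of 15865 genes (0.0315%) passed. Within low growth, PMCH was at a median of 2.79 CPM at day 39 against 250.0 CPM at day 7, and HCRT at 7.35 against 81.6 CPM. The fitted fold changes were -0.89 ± 1.30 for PMCH (adjusted p = 0.770) and -1.09 ± 1.12 for HCRT (adjusted p = 0.658), and 0.0315% of genes passed. Without replicate 2 of day 39 the values were -6.35 ± 1.14 for PMCH (adjusted p = 0.0378), 1 of 3 genes past the threshold on the lower side among 16034 (0.0187%), and -4.21 ± 1.04 for HCRT (adjusted p = 0.0796). Since that library was set aside for its own PMCH level, the PMCH call depends on that choice and was absent with all libraries. Within high growth the fold changes were 0.79 ± 1.30 for PMCH and 0.66 ± 1.11 for HCRT (adjusted p = 0.99997 for each), with medians of 114.02 CPM at day 39 and 79.2 CPM at day 7 for PMCH and 62.9 and 61.1 CPM for HCRT.

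The receptor genes showed no such split at day 39. HCRTR1, the receptor that prefers orexin A, had a lowest, median and highest level of 0.658, 2.36 and 11.7 CPM in low growth libraries and 1.45, 8.09 and 11.8 CPM in high growth at day 39. At day 7 these were 0.542, 6.89 and 17.9 CPM in low growth libraries and 0.681, 4.78 and 13.9 CPM in high growth. The ranges overlapped in both days. Its log2 fold change, low over high growth, was -0.80 ± 0.82 at day 39 (adjusted p = 0.999) and 0.31 ± 0.81 at day 7 (adjusted p = 0.957).

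HCRTR2, the receptor for both orexins, measured 0, 6.93 and 16.5 CPM (lowest, median, highest) in low growth and 3.66, 9.66 and 20.2 CPM in high growth at day 39. The 0 belongs to low growth replicate 3, where 3 counts would have been 0.180 CPM; the other 5 low growth libraries held 2.91 CPM or more. At day 7 it measured 1.56, 9.42 and 17.2 CPM in low growth libraries and 1.02, 8.61 and 17.9 CPM in high growth, with nearly the same range in both. The log2 fold change was -0.55 ± 0.75 at day 39 (adjusted p = 0.999) and 0.04 ± 0.75 at day 7 (adjusted p = 0.996).

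QRFPR, the QRFP receptor, had few reads, with a lowest, median and highest level of 0.371, 1.496 and 4.59 CPM in low growth libraries and 0.887, 1.84 and 2.97 CPM in high growth at day 39. At day 7 it measured 0.203, 0.950 and 4.33 CPM in low growth libraries and 0.136, 0.921 and 2.32 CPM in high growth. Medians at day 39 were above those at day 7 in both growth groups, but the ranges overlapped and the log2 fold change of 0.68 ± 0.49, day 39 over day 7, did not pass (adjusted p = 0.624). For growth it was 0.09 ± 0.68 at day 39 (adjusted p = 0.999) and 0.46 ± 0.70 at day 7 (adjusted p = 0.919). The day 39 value changed sign under other tests, with a mean log2 difference of -0.21 (exact permutation p = 0.721, n = 6 each).

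MCHR1, the receptor for melanin-concentrating hormone, averaged 4.43 ± 2.06 CPM in low growth libraries and 4.04 ± 1.38 CPM in high growth at day 39, and 5.39 ± 3.08 CPM in low growth libraries and 4.36 ± 2.48 CPM in high growth at day 7 (SD, n = 6 each). Its log2 fold change was 0.13 ± 0.47 at day 39 and 0.31 ± 0.47 at day 7 and passed in neither. MCHR2 had 0 to 3 counts and was at 0 in 12 of 24 libraries. QRFP, the ligand gene of QRFPR, had 0 to 4 counts and was at 0 in 16 of 24. Both were too low to test.

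The spread between libraries was wider for the peptide genes than for the receptor genes. Over the 24 libraries the SD of log2 CPM was 2.97 for PMCH, 2.22 for HCRT, 1.56 for HCRTR1, 1.64 for HCRTR2 and 1.20 for QRFPR, against a median of 0.46 over all 15865 genes. PMCH ranked 13 among all genes by this SD and HCRT 67. With group means taken out the SDs were 2.51 for PMCH and 2.06 for HCRT, so most of the spread lay within the groups of 6. HCRTR1, HCRTR2 and QRFPR kept SDs of 1.61, 1.68 and 1.19 within groups.

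PMCH and HCRT varied together from library to library. Over 24 hypothalamus libraries Pearson's r of log2 CPM was 0.88 and Spearman's rho 0.88 (permutation p = 1e-05 for each, the smallest that 100000 shuffles give, and 5e-05 after adjustment over the 10 pairs of the 5 genes). Without the 2 libraries farthest from the median of PMCH, both day 39 low growth, r was 0.88. Within day 39 r was 0.92 and rho 0.94 (n = 12, permutation p = 8e-05 and 3e-05), and within day 7 r was 0.83 and rho 0.69 (n = 12, permutation p = 0.00074 and 0.0169). With the 4 group means subtracted, r was 0.85 and rho 0.78 (permutation p = 3e-05 and 1e-04), and r was 0.72 without the 2 farthest libraries.

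Inside single groups of 6 the relation is less certain. In the high growth groups r was 0.84 at day 39 (exact permutation p = 0.0458, adjusted 0.114 over 10 pairs) and 0.85 at day 7 (exact permutation p = 0.0653, adjusted 0.218). In each low growth group 1 library stood far from the other 5, replicate 2 at day 39 and replicate 4 at day 7. There r was 0.91 at day 39 (exact permutation p = 0.0583, adjusted 0.146) and 0.87 at day 7 (exact permutation p = 0.0444, adjusted 0.148), and rho was 0.60 at day 39 (exact permutation p = 0.242) and 0.71 at day 7 (exact permutation p = 0.136). Without the 2 libraries farthest from the median of PMCH, r was -0.02 at day 39 in low growth, over PMCH levels of only 1.73 to 5.63 CPM, and 0.30 at day 7 in low growth, so that r in these groups rests on those libraries.

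**Figure D3:**
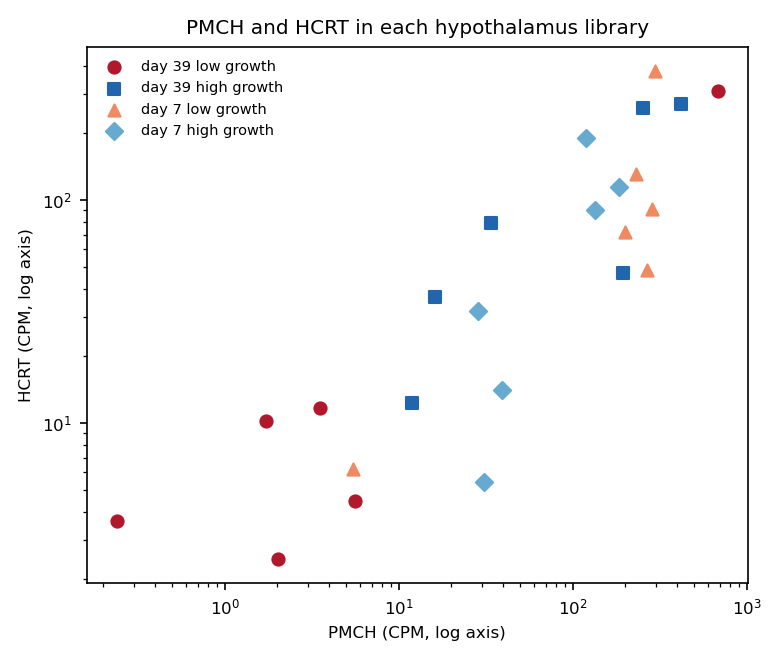
PMCH against HCRT in each of 24 hypothalamus libraries (CPM, both axes logarithmic; colour and shape give day and growth). The libraries lie along a diagonal from the day 39 low growth libraries at the lower left to those with over 200 CPM of PMCH at the upper right, with 1 low growth library of each day at the opposite end from its group.

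The balance of the peptide genes also varied. The ratio of PMCH to HCRT within a library had a lowest, median and highest value of 0.0656, 0.565 and 2.22 at day 39 in low growth and 0.431, 0.977 and 4.12 at day 39 in high growth. At day 7 it was 0.793, 2.28 and 5.57 in low growth and 0.630, 1.56 and 5.69 in high growth. The medians were lower at day 39 than at day 7 in both growth groups, and the ranges overlapped; the ratio was not tested. It carries no account of transcript length, so it compares libraries and not the levels of the peptides.

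Between peptide and receptor genes r was lower. Over all libraries PMCH had r = 0.29 and rho = 0.30 with HCRTR1 (n = 24, permutation p = 0.164, adjusted 0.205) and r = -0.05 and rho = 0.03 with QRFPR (permutation p = 0.806). With HCRTR2, PMCH had r = 0.46 and rho = 0.29 over 24 libraries (permutation p = 0.0228 and 0.174, adjusted 0.0329 and 0.193). That r leaned on day 39 low growth replicate 3, where HCRTR2 was at 0: over the other 23, a choice made after seeing the data, r was 0.15 and rho 0.19 (permutation p = 0.487 and 0.379).

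The days gave different values for PMCH and the orexin receptors. Within day 39 PMCH had r = 0.63 and rho = 0.69 with HCRTR1 (n = 12, permutation p = 0.0344 and 0.0181, Pearson adjusted 0.0491) and r = 0.68 and rho = 0.64 with HCRTR2 (permutation p = 0.00378 and 0.0287, Pearson adjusted 0.00774). Without low growth replicates 2 and 3, the 2 farthest in PMCH, these r were 0.39 and 0.49. Within day 7 r was -0.14 with HCRTR1 (n = 12, permutation p = 0.675) and -0.11 with HCRTR2 (permutation p = 0.743), against 0.32 and 0.51 without low growth replicate 4 and high growth replicate 1, the 2 farthest there. The difference between days was not tested.

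HCRT had a positive r with both orexin receptor genes. With HCRTR1 r was 0.56 and rho 0.59 (n = 24, permutation p = 0.00483, adjusted 0.00966), and r was 0.48 without the 2 farthest libraries. With the group means subtracted r was 0.52 (permutation p = 0.0163, adjusted 0.0386). Within days it was 0.79 at day 39 (n = 12, permutation p = 0.00387) and 0.36 at day 7 (n = 12, permutation p = 0.243). With HCRTR2 r was 0.55 and rho 0.53 (n = 24, permutation p = 0.0033, adjusted 0.00825), and 0.48 and 0.48 without the library at 0 (n = 23, permutation p = 0.0189, adjusted 0.0315), but with group means subtracted over 24 libraries r was 0.49 and did not pass (permutation p = 0.057, adjusted 0.095). Within days HCRT with HCRTR2 had r = 0.62 at day 39 (n = 12, permutation p = 0.0103) and 0.41 at day 7 (n = 12, permutation p = 0.182).

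The receptor genes varied with each other. HCRTR1 with HCRTR2 had r = 0.84 and rho = 0.82 (n = 23, permutation p = 1e-05, adjusted 5e-05, r = 0.76 without the 2 farthest), and HCRTR1 with QRFPR r = 0.72 and rho = 0.74 (n = 24, permutation p = 0.00011, adjusted 0.000367, r = 0.73 without the 2 farthest). HCRTR2 with QRFPR had r = 0.68 and rho = 0.64 (n = 23, permutation p = 0.00035, adjusted 0.000875, r = 0.51 without the 2 farthest). The 23 leave out the library where HCRTR2 was at 0, a choice made after seeing the data. Over all 24, HCRTR2 had r = 0.78 and rho = 0.84 with HCRTR1 (permutation p = 1e-05, adjusted 5e-05). With QRFPR it had r = 0.45 and rho = 0.61 (permutation p = 0.023 and 0.00208, adjusted 0.0329 and 0.0052). Within days HCRTR1 with QRFPR had r = 0.80 at day 39 and 0.78 at day 7 (n = 12 each, permutation p = 0.00176 and 0.00413). HCRTR1 with HCRTR2 had r = 0.75 at day 39 and 0.88 at day 7 (n = 12 each, permutation p = 0.00042 and 0.00013). HCRTR2 with QRFPR had r = 0.38 at day 39 and 0.72 at day 7 (n = 12 each, permutation p = 0.227 and 0.00828). MCHR1 lay with this set, with r = 0.83 to HCRTR1, 0.47 to HCRT and 0.16 to PMCH over 24 libraries, as a description.

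Single libraries show peptide and receptor levels apart and together. Day 7 low growth replicate 4, named here after its values were seen, had 5.44 CPM of PMCH and 6.23 CPM of HCRT, the lowest and next to lowest of day 7. In the same library HCRTR2 was at 17.2 CPM, the highest of its group, HCRTR1 at 11.5 CPM, MCHR1 at 7.42 CPM and GAD1 at 307 CPM. Its mammillary and tuberomammillary sum was 11.101 CPM, the lowest of the group. Other libraries had both high or both low: day 39 low growth replicate 2, with 685 CPM of PMCH and 309 CPM of HCRT, was also the highest of its group in HCRTR1 and HCRTR2 (11.7 and 16.5 CPM). Day 7 high growth replicate 2 was the lowest of its group in HCRT (5.45 CPM), HCRTR1 (0.681 CPM), HCRTR2 (1.02 CPM) and QRFPR (0.136 CPM).

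By likeness of log2 CPM over the 24 libraries, among 12533 other genes, HCRT was the second most like PMCH and PMCH the second most like HCRT (r = 0.88). The gene most like PMCH was PARPBP, which overlaps it (r = 0.89). Next came HDC, the enzyme gene of histamine synthesis that marks tuberomammillary neurons (r = 0.85), the mitochondrial ubiquitin ligase gene MUL1 (r = 0.84), NOP16 (r = 0.81) and TMEM9B (r = 0.79). TUBA1B, PDGFA, GSG1L and PSMD13 completed the 10, at r = 0.76 to 0.77. For HCRT the most like gene was HDC (r = 0.88), before PMCH, PARPBP (r = 0.84), SYT6 (r = 0.83) and SLC17A6, the vesicular glutamate transporter gene of hypothalamic neurons (r = 0.82). SLC12A1, MUL1, CCDC92, TMEM9B and EBF2 followed at r = 0.75 to 0.82. Without day 39 low growth replicate 3, HCRT remained at rank 2 and HDC at rank 3 for PMCH, and PMCH moved to rank 1 for HCRT. Over all 24 libraries the receptors stood further down the order for PMCH, HCRTR2 at rank 681, HCRTR1 at rank 2133 and QRFPR at rank 7022. They were higher for HCRT, HCRTR1 at rank 323, HCRTR2 at rank 394 and QRFPR at rank 2455. Without day 39 low growth replicate 3, HCRTR1 was at rank 3343 and HCRTR2 at rank 3416 for PMCH. For HCRT they were then at ranks 655 and 851.

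HDC was low at day 39 in all but 1 of the low growth libraries, though with overlap. It has a high r with PMCH and HCRT over these same libraries, so a like pattern follows from that r. It measured 0, 0.401 and 325 CPM (lowest, median, highest) in low growth and 0.601, 22.9 and 810 CPM in high growth at day 39, and 0.170, 33.9 and 138.3 CPM in low growth libraries and 0.174, 2.14 and 73.1 CPM in high growth at day 7. The 325 CPM belonged to low growth replicate 2, the library with 685 CPM of PMCH; the other 5 low growth libraries were at 0.897 CPM or less, and 2 of them, at 0.663 and 0.897 CPM, lay above the lowest high growth library. The log2 fold change, low over high growth, was -1.63 ± 1.75 at day 39 and 1.09 ± 1.73 at day 7, and passed in neither. BARHL1, a transcription factor gene of the mammillary region, was at 0 in 5 of 6 day 39 low growth libraries and in 1 of 6 in each other group, with r = 0.79 to PMCH and 0.85 to HCRT. FOXB1 (r = 0.69) and LMX1B (r = 0.62), of the same list, also had positive r with PMCH. The summed level of the 5 genes ran from 1.38 to 399.6 CPM at day 39 in low growth, 7.93 to 897 CPM at day 39 in high growth, 11.101 to 191 CPM at day 7 in low growth and 8.10 to 127 CPM at day 7 in high growth. Its part in the peptide values was not tested.

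The receptor genes had other neighbours. HCRTR1 was most like FAM43B (r = 0.97), and CACNB1, a calcium channel subunit gene, PRKAR1B, a regulatory subunit gene of protein kinase A, and the synaptic gene RIMS3 were among its 10 nearest, at r of 0.95 to 0.97. QRFPR was most like TASP1 (r = 0.93). For HCRTR2, over the 23 libraries where it was above 0, DNAJA4 was nearest (r = 0.92) and GAD1, the GABA synthesis enzyme gene, ranked 14 (r = 0.90). Over the same 23 libraries GAD1 had r = 0.02 with PMCH and 0.39 with HCRT.

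**Figure D4:**
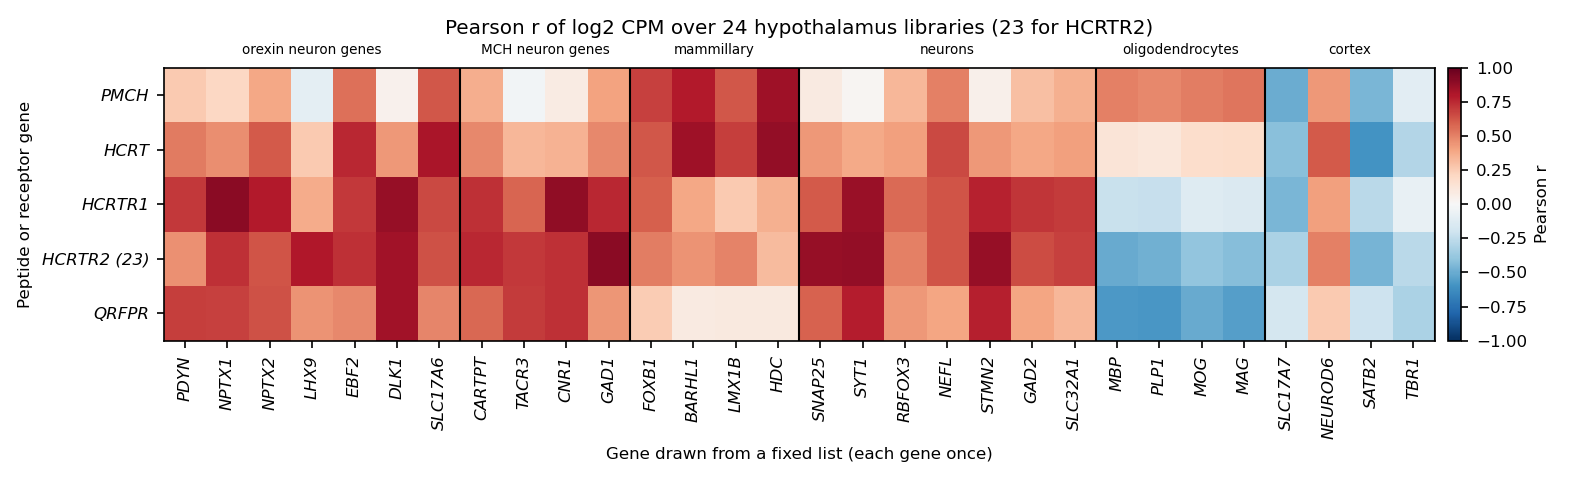
Pearson r of log2 CPM between each of the 5 genes (rows) and genes drawn from marker lists (columns) over hypothalamus libraries (24, or 23 for HCRTR2, without the library where it was at 0). PMCH and HCRT share high r with the mammillary genes, up to 0.85 for PMCH and 0.88 for HCRT with HDC, whereas HCRTR1 is high for neuronal genes such as SYT1 (0.86).

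Other cell types moved with the genes in different ways. MBP, the myelin basic protein gene of oligodendrocytes, had r = 0.50 with PMCH, 0.13 with HCRT and -0.57 with QRFPR over 24 libraries; without day 39 low growth replicate 3, where it was at its lowest, r with PMCH was 0.27. The 4 oligodendrocyte genes summed to between 362 and 134074 CPM at day 39 in low growth, 8716 and 146811 CPM at day 39 in high growth, 13204 and 153168 CPM at day 7 in low growth and 20507 and 143634 CPM at day 7 in high growth. The sum of 9 neuronal genes ran from 712 to 3482 CPM at day 39 in low growth, 1314 to 3599 CPM at day 39 in high growth, 1043 to 3791 CPM at day 7 in low growth and 612 to 3373 CPM at day 7 in high growth. The part these cell types have in the 5 genes' levels was not tested.

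Gene lists around the peptide systems gave no call for growth: 0 members passed after adjustment at day 39 or at day 7. Of 7 genes that orexin neurons share, such as PDYN, the dynorphin precursor, and NPTX2, 2 had a fold change above 0 and 5 below at day 39 (median -0.47, all genes 0.02), and 5 above and 2 below at day 7 (median 0.30, all genes 0.01). The lowest p belonged to LHX9, a transcription factor gene of orexin neuron development in mice, at day 39 (2.27 ± 1.05, adjusted p = 0.901), and to NPTX2 at day 7 (2.15 ± 1.06, adjusted p = 0.661). LHX9 ranged from 0.124 to 39.5 CPM in day 39 low growth. Its r with HCRT was 0.26 over 24 libraries and 0.61 over the 23 without day 39 low growth replicate 3. The part of that library in the LHX9 fold change was not tested. Of 5 tested genes shared by MCH neurons, 1 was above 0 and 4 below at day 39 (median -0.35), and 3 above and 2 below at day 7 (median 0.29). Among them, CARTPT, the CART peptide precursor, had -1.08 ± 1.14 at day 39.

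The RFamide systems, with 6 of 8 genes tested, had 2 genes above 0 and 4 below at day 39 (median -0.30), and 4 above and 2 below at day 7 (median 0.13). NPVF, which encodes the gonadotropin-inhibitory peptides, had -2.24 ± 1.03 at day 39 (adjusted p = 0.889) and NPFF 1.26 ± 0.54 at day 7 (adjusted p = 0.597). Of 9 other lateral hypothalamus neuron genes, 6 were above 0 and 3 below at day 39 (median 0.28), and 3 above and 6 below at day 7 (median -0.07). Galanin, GAL, had the lowest p of these at day 7 (2.15 ± 0.94, adjusted p = 0.597). Prohormone processing and granule genes had 8 above 0 and 3 below at day 39 (median 0.22), led by the granin gene CHGB (1.83 ± 0.82, adjusted p = 0.860), and 6 above and 5 below at day 7 (median 0.22). CHGB was at its highest, 2481 CPM, in a day 39 low growth library.

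Genes of the arousal cell groups that orexin excites, 7 of 8 tested, had 4 above 0 and 3 below at day 39 (median 0.11) and 5 above and 2 below at day 7 (median 0.23). The serotonin transporter gene SLC6A4 had the lowest p of them at day 39 (7.92 ± 2.14, adjusted p = 0.527) and TPH2, the serotonin synthesis enzyme of neurons, at day 7 (-4.56 ± 1.21, adjusted p = 0.549). At day 39 SLC6A4 was at 713 CPM in low growth replicate 3, the library with the raphe sum of 714 CPM. CHAT, the acetylcholine synthesis enzyme gene, had 2.75 ± 1.31 at day 39 and 3.37 ± 1.39 at day 7 (adjusted p = 0.908 and 0.583). SLC18A2, the vesicular monoamine transporter gene, had r = 0.62 with PMCH and 0.69 with HCRT.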

How the data were processed

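Hypothalamus and ileum RNA of piglets was measured by poly-A RNA-seq in 48 libraries. Per the submitters' processing notes, Trim Galore, kallisto and DESeq2 were used on Sscrofa11.1; no versions or order of steps are given there. The values deposited by the authors are estimated counts per gene, 53% of them not whole, so they were rounded for testing. The authors also deposited a normalized signal, the estimated count divided by 1 size factor per library, used in 1 alternative on log2(value + 1), where 1 cell that held no number was set aside with its gene.

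CPM was computed from the estimated counts and the total of tested genes per library, scaled by TMM. Genes were tested with edgeR 4.0.16 (TMM, filterByExpr with a minimum count of 10, quasi-likelihood F test over the 24 hypothalamus libraries, 1 mean per group, Benjamini-Hochberg adjustment, threshold 0.05), run in R 4.3.3 and checked on simulated data. All 5 genes passed the filter. Correlations used log2 CPM with a prior count of 2 and 100000 shuffles, or every ordering within groups of 6. Alternatives were DESeq2 1.42.0, limma 3.58.1 (voom and trend), other filters and scaling, and each library left out; the contrasts of days within each growth group, the fit without day 39 low growth replicates 2 and 3 and the values over 23 libraries were chosen after seeing the data. Genes were named by the given 5, by the 10 highest Pearson r to each peptide gene with a mean log2 CPM of at least 0, and by lowest p in each list; the receptors' nearest genes were added after their values were seen. Symbols came from an Ensembl table and positions from RefSeq. The genes and lists were chosen with earlier results of these data known.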

Additional observations from a re-analysis of the deposited data

Results flagged for a closer look

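Within groups of 6 libraries, 4 values stood apart from the rest of their group by Dixon's criterion (the gap to the nearest library over the group's range, beyond the critical value), which chance meets in about 1 in 20 groups. PMCH at 685 CPM in day 39 low growth replicate 2 had a ratio of 0.633 on the log2 scale, and HCRT at 309 CPM in the same library 0.681. PMCH at 5.44 CPM in day 7 low growth replicate 4 had a ratio of 0.9. HCRTR2 at 0 CPM in day 39 low growth replicate 3 had 0.655.

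The ileum libraries, outside the comparisons above, also gave counts. PMCH exceeded 3 estimated counts in 24 of 24 ileum libraries, at 0.963 to 11.99 CPM with a median of 3.58 CPM, and HCRT in 24 of 24, at 1.57 to 8.93 CPM with a median of 5.49 CPM. In ileum, r of log2 CPM was 0.72 between PMCH and the overlapping gene PARPBP and 0.69 between HCRT and the overlapping gene GHDC (n = 24, as a description); in hypothalamus these were 0.89 and -0.24. HCRTR1 exceeded 3 counts in 16 of 24 ileum libraries, at up to 0.951 CPM: all 12 of day 7 and 4 of 12 of day 39. HCRTR2 did so in 1 of 24, at 3.10 counts. QRFPR reached at most 2 counts in ileum.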

How the results depend on the processing

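No paired analysis was possible because the labels number no replicates, and numbers given in accession order pair no samples. DESeq2 called more genes than edgeR: 18 against 0 for growth at day 39, 7 against 0 at day 7, 1 against 0 for the difference between days, 33 against 5 for day 39 over day 7 and 522 against 5 for it within low growth; the cause was not tested. None of the 5 genes was called by it, and limma voom called 0 genes for growth on either day. The growth effect of QRFPR at day 39 (0.09) was -0.24 by limma trend on the normalized table, -0.21 as a difference of mean log2 CPM and -0.25 by limma voom. PMCH at day 39 had -3.92 and HCRT -2.68 by limma voom.

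With each library left out, 5 to 14 genes were called for day, 1 to 10 within low growth and 4 to 5 within high growth. The log2 fold changes of PMCH ran from -5.88 to 0.19 for growth at day 39, -2.78 to 0.12 for day and -6.35 to -0.63 for day within low growth. Those of HCRT ran from -1.77 to 0.18 for day and -0.090 to 1.24 for growth at day 7. HCRTR1 ran from -0.030 to 0.57 for day within high growth and -0.092 to 0.67 for growth at day 7. HCRTR2 ran from -0.27 to 0.11 for day, -0.061 to 0.58 for day within high growth and -0.24 to 0.38 for growth at day 7. QRFPR ran from -0.81 to 0.40 for the difference between days, -0.35 to 0.31 for growth at day 39 and -0.31 to 0.89 for growth at day 7. The r of PMCH with HCRT ran from 0.86 to 0.90. At most 3 counts were seen of MCHR2, so no difference in it was detectable at this depth.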
